A study of Physcomitrium patens with 10 samples.

Results

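Partially rehydrated (PRE) leafy shoots of the moss Physcomitrium patens were set against shoots kept hydrated (HD), to see which microRNAs still differed in level some way into rewetting. The shoots, called gametophores, were grown on BCD medium, a mineral medium for moss, and both groups share that medium and the source tissue. The PRE group had been through drying and was partly rewetted, and the HD group was the hydrated starting state. The titles of the samples name 2 as PRE and 2 as HD, so 4 of the 10 samples of the series are compared. The other 6 samples are 2 each of moderately dehydrated (MDH), severely dehydrated (SDH) and fully rehydrated (FRE) shoots, and they enter below only as levels set beside PRE and HD. The sources used here give no strain, age, water content or times of drying and rewetting.

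The treatment field of both PRE samples reads severely dehydrated, against their titles, while the columns of levels carry the name PRE. In all, the field goes against the title in 7 of the 10 samples, 5 of them among the 6 MDH, SDH and FRE samples, so the levels given for those states carry the same doubt. That the PRE values come from partly rewetted shoots therefore rests on the titles and column names, and miRNA levels hold no marker by which it could be checked. Each group has 1 value per miRNA, pooled by the authors, in RPM (reads per 1000000). No difference below has a replicate check or a p-value of its own, the number of reads behind a level is unknown, and "higher" or "lower" compares 2 pooled values.

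A miRNA is cut from a hairpin precursor whose arms are named 5p and 3p, or the miRNA and its star, and it guides an Argonaute protein to matching messenger RNAs, which in plants are mostly cleaved. A family shares nearly the same mature sequence and mostly the same targets, so its names can carry identical levels because reads cannot be told apart. In mosses, as in flowering plants, old families control transcription factors of shoot development and auxin response, and many further families are known from mosses alone. P. patens gametophores survive considerable water loss, and the hormone abscisic acid is known to raise that tolerance.

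The deposited table held 280 mature miRNA names from 108 family numbers. Of these, 213 reached 3 RPM in the higher of PRE and HD and were compared through log2((PRE + 1)/(HD + 1)), called the log2 change below. The other 67 lay under that level in both groups, 15 of them at 0 in both. By this measure 46 names (21.6%) exceeded HD by 2-fold or more in PRE, another 40 (18.8%) were below it by as much, and 40.4% passed 2-fold in either direction. Past 4-fold stood 12 names that were higher and 8 that were lower. The changes ran between -4.28 and 3.52, and the middle 50% of names between -0.77 and 0.81. Of the 280 names, 104 have a near-identical copy, a name that matches them to 5% or 0.5 RPM in each of the 5 states. Counted once, the 213 names were 147 values, of which 27 were higher and 30 lower.

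**Figure D1:**
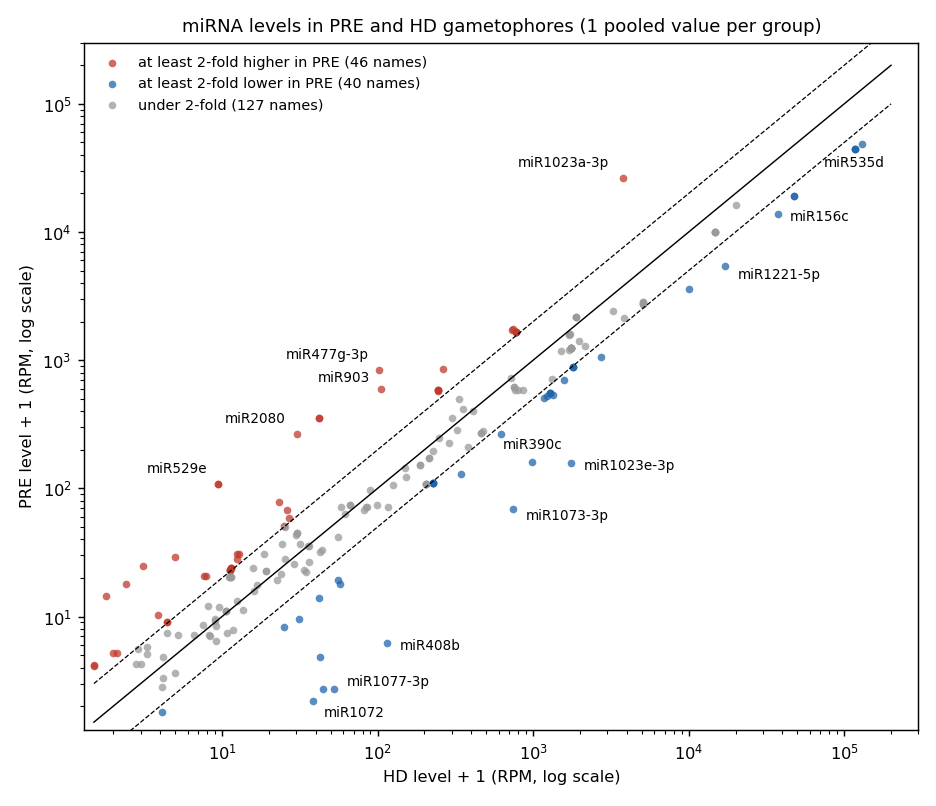
Levels in PRE (vertical axis) against HD (horizontal axis) for the 213 names compared, each plus 1 RPM, on log axes. The solid line marks equal levels and the dashed lines 2-fold, and points are coloured as 46 higher, 40 lower and 127 under 2-fold. miR1023a-3p stands alone above the lines among names over 1000 RPM in HD that passed 2-fold upward, and the miR535 and miR156 names lie below them at the top right.

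The summed level of all miRNAs was lower in PRE. With copies counted once it was 226788 RPM in PRE and 450736 RPM in HD, a difference of 223948 RPM. Families miR535 and miR156 held 91.7% of that difference. They made up 55.7% of the summed level in PRE and 73.6% in HD. Without them the sums were 100575 RPM in PRE and 119180 RPM in HD, and without miR1023 as well 73485 RPM in PRE and 113251 RPM in HD. To which reads RPM refers is not stated, so whether the lower sum is a lower share of all small RNAs was not tested.

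That choice sets the direction of many small changes. When all states were scaled to the same summed level, the median log2 change of the 213 names moved to 0.79, against -0.19 as deposited, a shift of 0.99. The split then became 89 higher (41.8%) and 8 lower (3.76%), 45.5% in either direction. All 46 names called higher stayed so, and 8 of the 40 called lower did. Of all names compared, 83 turned from a negative to a positive log2 change, among them 3 called lower. Under the milder median-of-ratios scaling the median moved by 0.10. For this reason both values are given below for each family described whose sum changes sign. Within a family or a hairpin, the difference between the log2 changes of names depends on the scaling only through the added 1 RPM. Which names are called higher or lower depends on the scaling there too.

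Scarce and abundant names differed in their balance. Among 33 names whose mean over the 5 states was under 10 RPM, 8 were higher, 3 were lower and the median log2 change was 0.20. The 74 names at 10 to 100 RPM had 21 higher, 8 lower and a median of 0.22. The balance tipped above 100 RPM. There were 10 higher and 16 lower among 54 names at 100 to 1000 RPM, whose median was -0.37, and 7 higher and 13 lower among 52 names at 1000 RPM and over, whose median was -0.51. Counting copies once, the 4 classes held 7 and 3, 11 and 8, 6 and 11, and 3 and 8 names that were higher and lower. With summed levels made equal all 4 medians were above 0, at 1.09, 1.20, 0.66 and 0.52, so the order of abundant below scarce held but the negative sign did not.

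**Figure D2:**
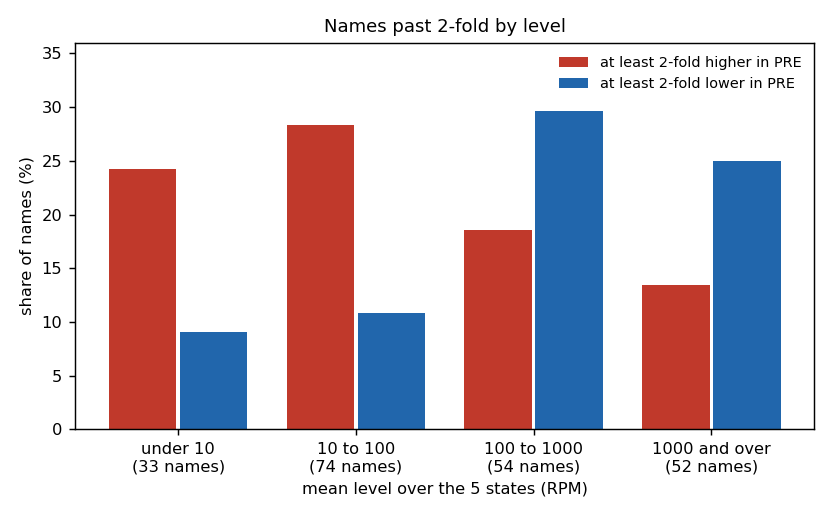
Share of names (vertical axis, percent) at least 2-fold higher (left bar) or lower (right bar) in PRE, by mean level over the 5 states (horizontal axis, RPM). Higher names make up 28.4% and lower names 10.8% at 10 to 100 RPM, against 13.5% and 25% at 1000 RPM and over.

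Regulators of SPL transcription factors came first by level. SPL genes promote shoot maturation in flowering plants, and miR156 and miR529 both target them, while miR535 resembles the 2 in sequence. miR535 summed to 93228 RPM in PRE and 246722 RPM in HD with copies once, 2.65-fold lower, and made up 41.1% of the summed level in PRE and 54.7% in HD. Its 4 names carry 2 sets of values, so they are not 4 observations. miR156 summed to 32984 RPM in PRE and 84834 RPM in HD, 2.57-fold lower, and its share of the sum was 14.5% in PRE and 18.8% in HD. The log2 changes of these 2 family sums, -1.40 and -1.36, became -0.37 and -0.33 with summed levels made equal, so they kept their sign and no longer passed 2-fold.

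miR529 split within the family. miR529e was at 107 RPM in PRE and 8.4 RPM in HD, and miR529f had nearly the same values. miR529a, miR529b and miR529c, which hold most of the family, were at 1588, 1591 and 1585 RPM in PRE and at 1705, 1723 and 1704 RPM in HD. miR529d stood at 266 RPM in PRE and 620 RPM in HD, and miR529g at 13.0 RPM in PRE and 41.3 RPM in HD. The changes of the 7 names thus spread over 5.12 log2 units, between -1.60 and 3.52. The summed family was at 1974 RPM in PRE and 2375 RPM in HD, a log2 change of -0.27 that became 0.76 with summed levels made equal.

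miR166 targets the HD-ZIP III genes, which set polarity and growth of shoots and leaves. Of its 13 names, miR166j, miR166k and miR166l were at 553 RPM in PRE and 1278 RPM in HD, 2.31-fold lower, and the other 10 stayed under 2-fold. Most of those 10 share the values of miR166a, 1236 RPM in PRE and 1749 RPM in HD. The family sum was 4216 RPM in PRE and 6269 RPM in HD, a log2 change of -0.57 (0.46 with summed levels made equal).

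Families tied to auxin parted by family. miR390 starts the making of TAS3 small interfering RNAs, which in turn act on auxin response factor genes, and all 4 of its names were lower. miR390a was at 525 RPM in PRE and 1232 RPM in HD, and miR390c at 161 RPM in PRE and 985.5 RPM in HD. The family sum was 1204 RPM in PRE and 3418 RPM in HD, 2.84-fold lower, and its log2 change of -1.50 became -0.48 with summed levels made equal. miR160, which targets auxin response factor genes directly, had none of 8 compared names past 2-fold, with changes between -0.49 and 0.55. The scarce miR160d was at 5.5 RPM in PRE and 8.1 RPM in HD, and the more abundant miR160a at 43.6 RPM in PRE and 29.5 RPM in HD. miR1219, a moss family with the same kind of target, summed to 22.2 RPM in PRE and 21.1 RPM in HD, with none of its 4 names past 2-fold. Over the auxin-related list 0 of 16 names were higher and 4 (25%), all of miR390, lower, against 21.6% higher and 18.8% lower over all names compared. The median log2 change of the list was -0.03 (0.89 with summed levels made equal). These counts rest on the scale, since with summed levels made equal 5 of the 16 names were higher and 1 lower. The sums of miR160 and miR1219 then had log2 changes of 1.27 and 1.05.

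Of the other regulators of developmental genes, miR319, which acts on TCP genes in flowering plants, differed by product. miR319d.2*, the most abundant miR319 name, was at 3572 RPM in PRE and 10045 RPM in HD. Its log2 change of -1.49 became -0.46 with summed levels made equal. miR319d itself was at 70.9 RPM in PRE and 83.1 RPM in HD, and miR319a at 34.5 RPM in PRE and 35.1 RPM in HD. None of the 7 names was higher and 1 was lower. miR171, which targets GRAS genes, was at 21.7 RPM in PRE and 18.3 RPM in HD for both its names. miR538, whose moss targets are MADS-box genes, was at 2177 RPM in PRE and 1891 RPM in HD for miR538a. miR534a, which acts on BLADE-ON-PETIOLE genes, was at 13.5 RPM in PRE and 0.8 RPM in HD, a log2 change of 3.01 whose size rests on the added 1 RPM. Over the list of these regulators 3 of 36 names were higher, 9 were lower and the median was -0.50 (0.53 with summed levels made equal). Its 25% of lower names stood near the 18.8% over all names compared, and 8.33% were higher against 21.6%. With copies once 2 of 18 were higher and 6 lower. With summed levels made equal 8 of the 36 were higher and 0 lower.

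At 5.2 RPM in PRE and 114 RPM in HD, miR408b was 21.9-fold lower. In plants miR408 acts on transcripts of copper-binding proteins. It was the single name of the nutrient and copper list that could be compared, and with summed levels made equal its log2 change of -4.21 became -3.26. In the small RNA machinery list, miR904 targets the Argonaute gene AGO1 in moss and miR1047 the Dicer-like gene DCL1. miR904a was at 1737 RPM in PRE and 740.2 RPM in HD, 2.35-fold higher, with miR904b as its copy. miR1047-3p was at 8.2 RPM in PRE and 8.0 RPM in HD. The list had 2 of 3 names higher, against 21.6% over all names compared. Its median log2 change was 1.23 (2.26 with summed levels made equal, 0.63 with copies once).

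Conserved families with other or uncertain roles moved in different ways. miR477, which acts on GRAS genes in poplar, had 9 of 10 names higher, though the 10 names carry 6 sets of values. Its sum was 3198 RPM in PRE and 1004 RPM in HD, 3.18-fold higher, and its share of all miRNA was 1.41% in PRE and 0.223% in HD. Within it, miR477g-3p was at 839.6 RPM in PRE and 102 RPM in HD, miR477d at 852 RPM in PRE and 263 RPM in HD, and miR477a-3p, the name under 2-fold, at 493 RPM in PRE and 333 RPM in HD. miR536 had 4 copies near 9958 RPM in PRE and 14842 RPM in HD, as for miR536d, a log2 change of -0.58. miR536f was at 57.9 RPM in PRE and 26 RPM in HD and passed 2-fold upward. The scarce and the abundant names of that family thus had opposite signs as deposited. With summed levels made equal both were positive, at 2.12 for miR536f and 0.45 for miR536d. The sum of miR536 changed by -0.57 as deposited and by 0.46 with summed levels made equal. Among all 65 names of conserved families 12 (18.5%) were higher, 18 (27.7%) were lower and the median was -0.49. Over all names compared 21.6% were higher, 18.8% were lower and the median was -0.19. The remaining 148 names had 34 (23.0%) higher, 22 (14.9%) lower and a median of -0.01. With copies once the conserved names were 7 higher and 13 lower of 38, and the remaining names 20 and 17 of 109. The 2 medians were 0.53 and 0.98 when sums were made equal. The counts were then 20 higher and 2 lower of 65, and 69 higher and 6 lower of 148.

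Among the moss families, miR1023 had the widest spread, 6.27 log2 units over 6 compared names. miR1023a-3p was at 26612 RPM in PRE and 3805 RPM in HD, and carried nearly the whole family sum of 27090 RPM in PRE and 5928 RPM in HD. miR1023e-3p was at 157 RPM in PRE and 1744 RPM in HD, and miR1023c-3p at 3.8 RPM in PRE and 41.7 RPM in HD. miR1023b-3p lay between, at 282 RPM in PRE and 322 RPM in HD. The family held 11.9% of the summed level in PRE and 1.32% in HD, so that it was the only family to gain more than 10 percentage points.

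In several moss families every compared name was higher. miR537 was at 1656 RPM in PRE and 778 RPM in HD for all 4 names, which share 1 set of values. miR903 was at 597 RPM in PRE and 104 RPM in HD, 5.72-fold higher, and miR2080 at 263 RPM in PRE and 29.2 RPM in HD. All 7 compared names of miR1030 were higher by just over 2-fold, as miR1030a at 22.1 RPM in PRE and 10.2 RPM in HD, again 1 set of copies. The sum of miR1030 with copies once, which takes in its scarcer names, was 25.1 RPM in PRE and 13.8 RPM in HD, a log2 change of 0.82 and under 2-fold. In miR1223, 6 of 10 names were higher, but its main name miR1223a was at 399.6 RPM in PRE and 407 RPM in HD, and the family sum was 500.1 RPM in PRE and 452 RPM in HD. The scarcer miR1223d was at 27 RPM in PRE and 11.4 RPM in HD. Of families with a single compared name, miR1035 was at 9.2 RPM in PRE and 2.9 RPM in HD, and miR1062 at 4.2 RPM in PRE and 1.1 RPM in HD.

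Other moss families were lower. miR1073 summed to 75 RPM in PRE and 769 RPM in HD, 10.3-fold lower, and miR1221 to 5597 RPM in PRE and 17294 RPM in HD, 3.09-fold lower. miR1072 was at 1.2 RPM in PRE and 37.6 RPM in HD, and miR1041 at 1.7 RPM in PRE and 43.3 RPM in HD. miR900, miR1039 and miR1032 summed to 1074, 531 and 695.5 RPM in PRE and to 2795, 1348 and 1575 RPM in HD. Those 3 sums had log2 changes of -0.35, -0.31 and -0.15 with summed levels made equal. The sum of miR1221 was then at -0.60 and no longer passed 2-fold, while miR1073 kept -2.32. miR1063 straddled the threshold, with 4 names at 2-fold or more, such as miR1063a at 108 RPM in PRE and 226 RPM in HD, and 4 just short, such as miR1063d at 107 RPM in PRE and 204 RPM in HD. Its 8 names are 2 sets of copies, and with summed levels made equal the family sum changed by 0.03. None of the 5 names of miR1033, the 4 of miR533 and the 3 of miR898 passed 2-fold. miR1033, miR533, miR1222 and miR898 had sums with log2 changes of -0.87, -0.84, -0.82 and -0.41, and all 4 turned positive, at 0.15, 0.19, 0.21 and 0.62, when summed levels were made equal. Within miR1222, miR1222d was at 127 RPM in PRE and 342 RPM in HD, and the scarce miR1222b at 4.2 RPM in PRE and 1.0 RPM in HD. miR1214, one of the most abundant single names, was at 16373 RPM in PRE and 20106 RPM in HD, a log2 change of -0.30 that became 0.73.

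**Figure D3:**
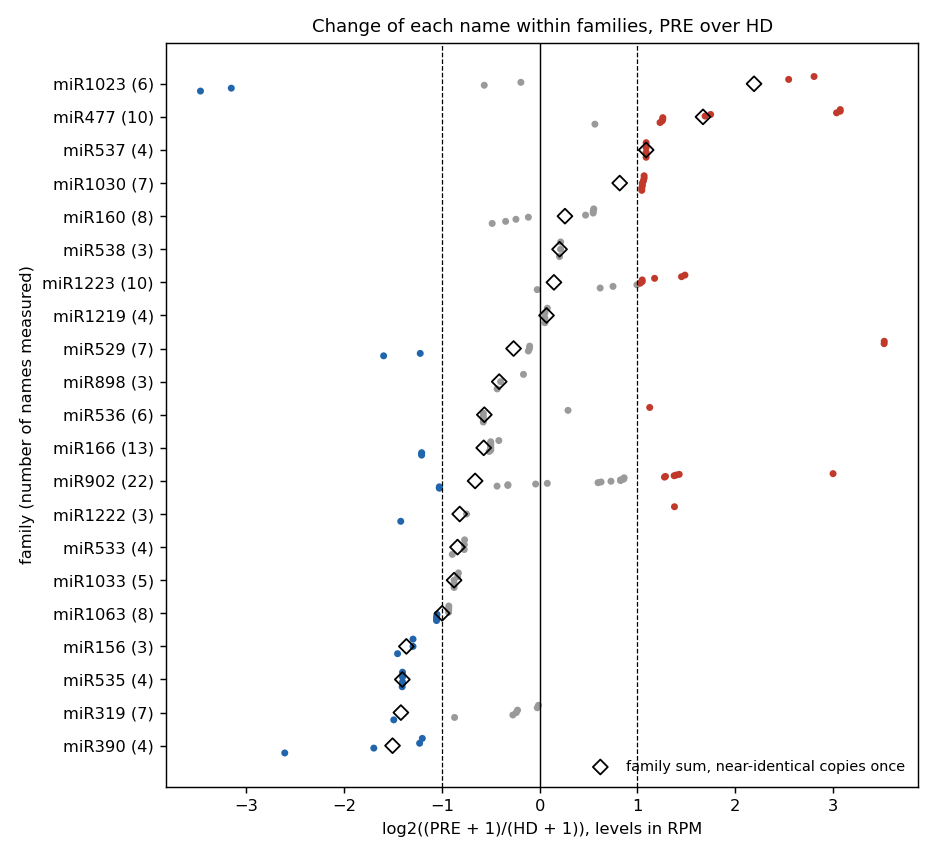
Log2 change (horizontal axis) of each name in the 21 families with 3 or more names compared (vertical axis), coloured red for at least 2-fold higher in PRE, blue for at least 2-fold lower and grey for neither. Open diamonds mark the family sum with copies once. On levels as deposited, miR1023, miR529, miR902 and miR1222 have names on both sides, while miR535, miR156 and miR390 lie wholly below -1. The sums of these 3 families are at -0.37, -0.33 and -0.48 when summed levels are made equal.

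Counted by family, 79 of the 108 families had a name to compare. In 8 of them every compared name was higher and in 12 every one was lower, 44 of the 79 having a single compared name. Names on both sides of 2-fold occurred in 4 families (miR1023, miR529, miR902 and miR1222), 4 families had some names higher and the rest under 2-fold, 4 had some lower and the rest under 2-fold, and 47 had none past 2-fold. By summed level with copies once, 9 of 80 families (11.2%) exceeded HD by 2-fold or more and 14 (17.5%) were below it by as much, together 28.8%. Equal summed levels turned these counts into 32 and 5. The classes by name rest on the scale too, since only 8 of the 40 lower names stayed lower then.

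The arms of 1 hairpin share a precursor, and scaling affects the ratio of their levels only through the added 1 RPM, which moved the difference of their changes by at most 0.26 log2 units when summed levels were made equal. Where hairpins of a family share values, as miR902c, miR902e and miR902g do, the reads may come from any of them. For 27 pairs from 26 hairpins both arms reached 3 RPM. In 11 pairs (40.7%) the changes of the arms differed by 2-fold or more. Both arms were higher in 3 pairs, both were lower in 4, 1 arm alone was higher in 5 and 1 alone lower in 5, and in no pair was 1 arm higher and the other lower past 2-fold. These calls rest on the scale. With summed levels made equal, miR1073-5p, miR1077-5p, miR390c* and miR900-3p, 1 arm of each pair with both lower, were at -0.65, -0.53, -0.73 and -0.68. The arms lower alone, miR1221-5p, miR319d.2* and the 3p arms of miR902c, miR902e and miR902g, were at -0.63, -0.46 and 0.00. None of these arms passed 2-fold on that scale. Changes of the arms were then compared with their sign. In 10 of the 11 pairs that differed, and in 20 of all 27, the arm scarcer over the 5 states had the higher value. The median difference was 0.64 over the 27. A higher value can be a smaller fall, as in miR1221, with -0.21 for the scarcer 3p arm and -1.66 for 5p. It can also be a rise, as in miR1076, with 2.89 for the scarcer 5p arm and -0.72 for 3p. With hairpins that share values counted once, 9 of 25 pairs differed by 2-fold or more. The scarcer arm had the higher signed value in 8 of these and in 18 of all 25, and the median difference was 0.40. Scarcer arms have fewer reads and so less precise ratios. miR319d enters 2 pairs, with miR319d.1* and miR319d.2*, and whether miR319d.2* is the partner of that miR319d product is not given.

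miR1077 was the single pair past 2-fold in which the scarcer arm was lower relative to the other arm in PRE than in HD. miR1077-3p was at 1.7 RPM in PRE and 51.4 RPM in HD, and miR1077-5p at 18.4 RPM in PRE and 54.7 RPM in HD. The 3p arm therefore made up 8.46% of the pair in PRE and 48.4% in HD. Its share was 7.41% in MDH, 0.278% in SDH and 50.5% in FRE, so that the pair was near balance in the 2 end states alone. The pair summed to only 8.1 RPM in MDH and 36 RPM in SDH, so the shares there rest on a very low 3p level.

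miR1076 shifted towards its 5p arm. miR1076-5p was at 16.8 RPM in PRE and 1.4 RPM in HD, and miR1076-3p at 70.3 RPM in PRE and 116 RPM in HD. The sum of the 2 had a log2 change of -0.43 (0.59 with summed levels made equal). The 5p share was 19.3% in PRE and 1.19% in HD, and it was 7.29% in MDH, 3.94% in SDH and 5.95% in FRE, so PRE had the highest share of the 5 states. In miR1073 the 5p share was 9.73% in PRE and 3.15% in HD, with both arms lower, at 7.3 and 67.7 RPM in PRE and 24.2 and 745 RPM in HD for 5p and 3p. In miR1221 the abundant 5p arm was lower, at 5402 RPM in PRE and 17068 RPM in HD, while the 3p arm was at 195 RPM in PRE and 226 RPM in HD.

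miR902 gave 10 of the 27 pairs and 6 of the 11 that differed, or 8 of 25 and 4 of 9 with copies once. Of its 12 compared 5p names 5 were higher and none lower. With copies once these names were 6 values, 3 of them higher, that summed to 167.2 RPM in PRE and 76.8 RPM in HD. Its 10 compared 3p names had 1 higher and 3 lower. With copies once they were 7 values, 1 higher and 1 lower, that summed to 1295 RPM in PRE and 2236 RPM in HD. The sum of the whole family had a log2 change of -0.66, which became 0.37 with summed levels made equal. miR902c-3p, whose values miR902e-3p and miR902g-3p share, was at 882 RPM in PRE and 1797 RPM in HD, while miR902c-5p was at 19.3 RPM in PRE and 10.2 RPM in HD. The log2 change of these 3 abundant 3p names, -1.03, became 0.00 with summed levels made equal. In miR902j, miR902k and miR902l the arms were more even. The 5p arm made up 31.7% of miR902j in PRE and 14.5% in HD, and 42.6% of miR902k in PRE and 17.7% in HD. In miR902l it was the 3p arm that had the larger share in PRE, with 44.7% in PRE and 15.4% in HD, so the 5p arm was not the one favoured in every hairpin of the family.

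Taken over all families, 5p names had a median log2 change of 0.83, with 9 of 26 higher (34.6%) and 4 lower (15.4%). The 3p names had one of -0.33, with 3 of 31 higher (9.68%) and 10 lower (32.3%). Over all names compared 21.6% were higher and 18.8% lower. The median of 5p names depended on miR902. Without it the median of 14 remaining 5p names was -0.26, with 4 higher and 4 lower, and that of 21 remaining 3p names -0.47, with 2 higher and 7 lower. Over all families the medians were 1.78 for 5p and 0.70 for 3p once summed levels were made equal. Of 5p names 17 were then higher and 0 lower, and of 3p names 8 were higher and 4 lower. The 6 star names had 2 lower and none higher, with a median of -0.88 (0.15 with summed levels made equal). Among 150 names with no arm given 34 were higher (22.7%) and 24 lower (16%), near the shares over all names. Their median was -0.17 (0.79 with summed levels made equal).

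**Figure D4:**
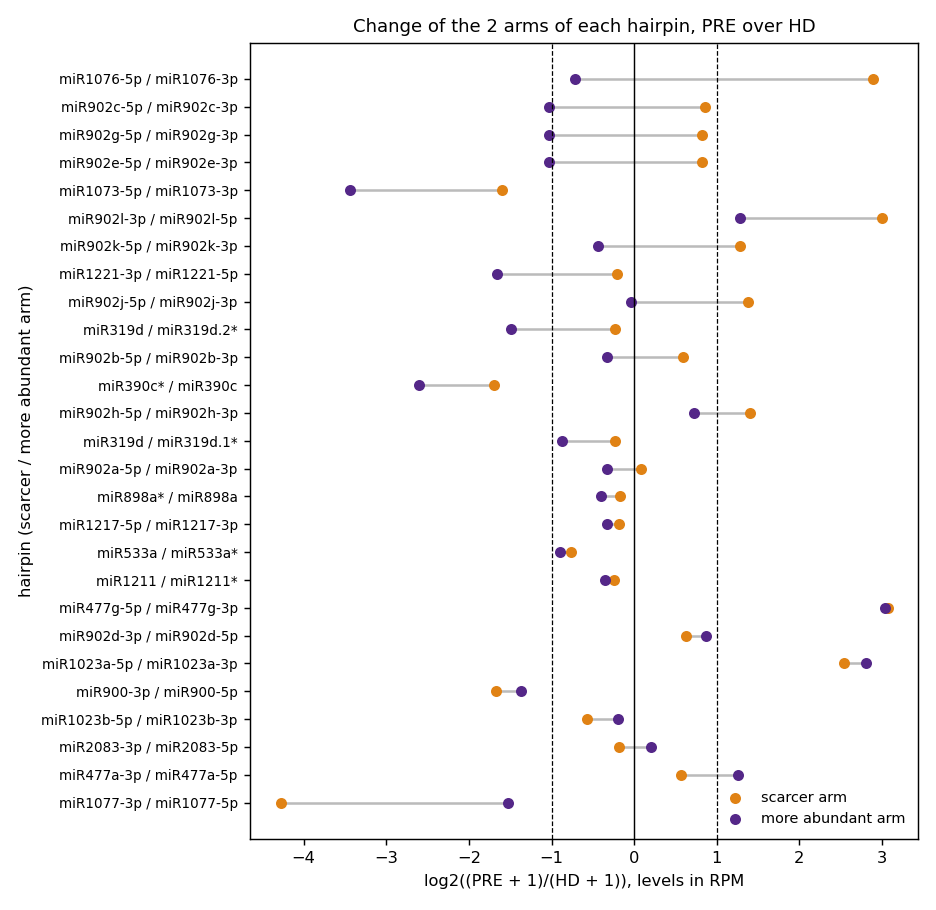
Log2 change (horizontal axis) of the scarcer arm (orange) and the more abundant arm (purple) for the 27 pairs with both arms at 3 RPM or more (vertical axis), ordered by their difference. Dashed lines mark 2-fold. The scarcer arm lies to the right in 20 pairs, and miR1077, at the bottom, is the single pair past 2-fold in which it lies to the left.

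The levels of PRE were also set beside those of the other states. They share the HD value with this comparison, so the following are levels as deposited and no further evidence for a difference from HD. Of the 213 names, PRE was the highest of the 5 states for 43 and the lowest for 42, against 80 and 63 for HD. With copies once PRE was highest for 24 and lowest for 20 of 147. These counts rest on the scale, since the summed level was lowest in PRE: with summed levels made equal PRE was highest for 117 of the 213 and lowest for 2, against 25 and 113 for HD. miR904a stood at 740.2 RPM in HD, 955 RPM in MDH, 1056 RPM in SDH, 1737 RPM in PRE and 839 RPM in FRE. miR903 stood at 104, 191, 93.6, 597 and 258 RPM in that order, and miR529e at 8.4, 18.6, 11.8, 107 and 26 RPM. For these 3, chosen after their values were seen, PRE exceeded each other state by over 1.5-fold, on this scale and with summed levels made equal.

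On the low side, miR535 summed to 246722 RPM in HD, 117832 RPM in MDH, 151089 RPM in SDH, 93228 RPM in PRE and 161996 RPM in FRE. miR390 summed to 3418, 1921, 2772, 1204 and 1372 RPM in that order. miR319d.2* stood at 10045 RPM in HD, 6594 RPM in MDH, 6112 RPM in SDH, 3572 RPM in PRE and 14558 RPM in FRE. All 3 had their lowest deposited level in PRE, and miR319d.2* its highest in FRE. With summed levels made equal miR390 was lowest in FRE, at 1373 RPM against 1692 RPM in PRE. The share of miR535 in the summed level was 41.1% in PRE and 41.2% in MDH, so the 2 states hardly differed by that measure.

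As deposited, some names lay within 2-fold of HD in PRE and beyond it in 1 or both dried states. miR1043-3p stood at 859.5 RPM in HD, 6.9 RPM in MDH, 18.4 RPM in SDH, 583 RPM in PRE and 70.9 RPM in FRE. miR2083-3p was at 28, 4, 3.7, 24.6 and 7.5 RPM in that order. Both were further from HD in FRE than in PRE. The family sum of miR1043 had a log2 change of -0.56 (0.47 with summed levels made equal). miR1052 stood at 352 RPM in HD, 2041 RPM in MDH, 1794 RPM in SDH, 412 RPM in PRE and 925 RPM in FRE. miR1050 was at 299, 268, 1098, 356 and 278 RPM, far from HD in SDH alone on this scale. With summed levels made equal the log2 changes of miR1052 and miR1050 in PRE were 1.26 and 1.28, past 2-fold upward. The names given here too were chosen after their values were seen.

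**Figure D5:**
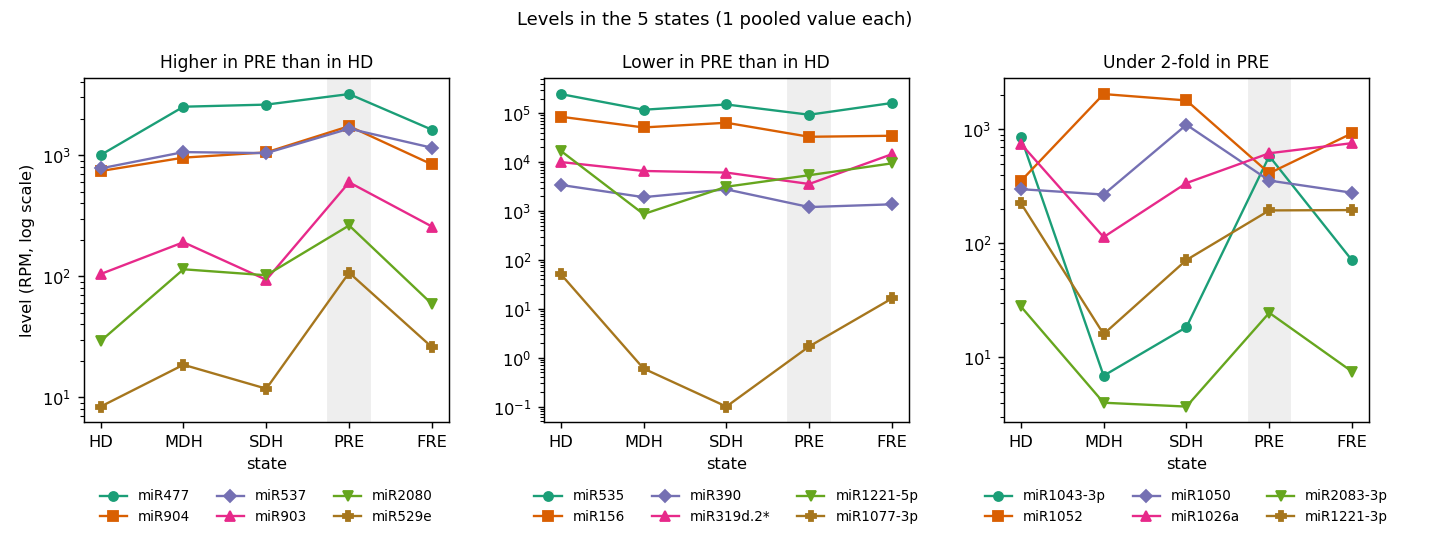
Level (vertical axis, RPM, log scale) in the 5 states (horizontal axis) for family sums with copies once (miR477, miR904, miR537, miR535, miR156, miR390) and single names, 1 pooled value per state. PRE is shaded. The left panel holds names and families higher in PRE than in HD as deposited, and the middle one those lower. The right panel holds names under 2-fold as deposited, such as miR1043-3p at 583 RPM in PRE and 859.5 RPM in HD. Of its names, miR1052 and miR1050 pass 2-fold upward with summed levels made equal.

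The threshold of 2-fold cut through groups of close values. Just above it on the higher side stood miR1223c at 50.2 RPM in PRE and 24.1 RPM in HD, miR1030a, and miR1223f at 8.1 RPM in PRE and 3.4 RPM in HD. Just under it stood miR1223b at 49.4 RPM in PRE and 24.3 RPM in HD, miR1068 at 4.6 RPM in PRE and 1.9 RPM in HD, and miR902d-5p at 19.2 RPM in PRE and 10.1 RPM in HD. On the lower side miR902g-3p, miR1063f and miR1063a were just past it, and miR1063d, miR1063c and miR1063e just short.

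The authors' deposited table of the same comparison lists 234 names, those that reached 1.0 RPM in either group, and marks 98 of them (41.9%), 54 higher and 44 lower in PRE. All 86 names past 2-fold here are among those marked. The other 12 comprise 9 names under 3 RPM in both groups and 3, miR1067, miR1068 and miR1223b, that missed 2-fold once 1 RPM was added. The p-values in the authors' deposited table are under 0.05 for 188 names. For 158 names with p above 1e-100 they were matched, within 0.001 log10 units in all 158, by an Audic-Claverie counting test that takes the levels as whole reads out of 10000000 in each group. That total is nominal and the same in both groups, so those p-values reflect neither the true number of reads nor the spread between the 2 samples of a group.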

How the data were processed

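Per the labels' protocols, total RNA of gametophores was enriched for fragments of 18 to 30 nt, ligated to adaptors, reverse transcribed and amplified by PCR. Aligner, genome build, miRNA reference, handling of reads that match several names and the pooling of replicates: not given in the sources used here. The authors deposited levels in RPM, written to 0.1, with 1 pooled value per group, so no interval could be computed. The authors' deposited comparison table also gives a total and an expression value (each a score, since the total is 10000000 in both groups and the expression value 10 times the RPM), log2 fold changes with 0 replaced by 0.01, and a p-value per name.

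Names were compared by log2 with a pseudocount of 1 RPM at 3 RPM or more in the higher group. The pseudocount understates the change of scarce names. Family and arm were read from the name. Alternatives were a pseudocount of 0 or 10 RPM, no minimum or one of 10 or 30 RPM, median-of-ratios scaling, copies once, every name summed, the authors' marks and, added after seeing the data, equal summed levels and pairs of arms with copies once. Computation used Python 3.11.15, pandas 2.3.3 and numpy 2.4.6, and the procedure was tested on simulated data. Members, lists and the 2-fold rule were chosen with earlier results of these data known. Named are the 10 largest rises and falls at 10 RPM or more, the 5 most abundant HD names, list leaders, families with 3 or more compared names, hairpins whose arms differ 2-fold, names nearest to 2-fold, and further names chosen after their values were seen. No count test or linear model was possible on single pooled values. Mature sequences are not shown.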

Additional observations from a re-analysis of the deposited data

How the results depend on the processing

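No paired analysis was possible because each group has 1 pooled column, and leaving out a replicate could not be run for the same reason. The 46 names higher in PRE became 25 with a pseudocount of 10 RPM, 24 with a minimum of 30 RPM, 27 with copies once and 89 with summed levels made equal, the last beside 8 lower in place of 40. The other alternatives kept both counts within 1.5-fold. A minimum of 30 RPM moved the auxin-related median to -1.20 and left 5 of the 11 pairs of arms that differ. Copies once moved the medians of the machinery list to 0.63 and of 5p names to 0.20, and with no minimum the medians of 5p names and of the nutrient and copper list were 0. With a pseudocount of 10 RPM the last was -3.03. With summed levels made equal the medians were 0.79 for all names, 0.53 for conserved and 0.98 for other families, 0.89 for auxin-related names, 0.53 for developmental regulators, 2.26 for the machinery list, -3.26 for the copper list, 1.78 for 5p, 0.70 for 3p, 0.15 for star names and 0.79 for names with no arm, and 32 family sums were higher and 5 lower. There miR902c-3p, miR902e-3p and miR902g-3p turned to 0.00298. Of the 55 single names, median-of-ratios scaling moved none by over 1.5-fold, a pseudocount of 10 RPM moved 14 and one of 0 RPM moved 5. Summed levels made equal moved 52 of the 55, and the other 3 were the miR902 names that turned. Beyond how each alternative is built, the cause of these moves was not tested. Read depth is unknown, so the precision of scarce levels is too.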
